A study of Mus musculus with 6 samples.

Results

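YBX1 peaks inside pseudogenes are described here: the peaks of 3 deposited lists whose midpoint, halfway between start and end, lies within the span of a mouse gene annotated as a pseudogene on chromosomes 1 to 19, X or Y. Of 12508 peaks in all, 272 met this rule, 135 in list 1, 69 in list 2 and 68 in list 3, and they lay in 118 of the 10510 annotated pseudogenes that were used. Each list set 1 YBX1 chromatin immunoprecipitate against 1 input library of its own, so 3 immunoprecipitates and 3 inputs stand behind them. All 6 libraries were made from untreated BaF3 cells (a mouse line of pro-B origin) with JAK2 V617F, a constitutively active form of the JAK2 kinase. Nothing in the labels tells if separate cultures were used for the replicates, or how many clones of the line, so the spread between lists may be technical. They also name no control antibody and no cells that lack YBX1, so the input was the only background. After the caller had removed duplicates, the immunoprecipitates held 67047843 to 69731230 tags and the inputs 67010178 to 87636322.

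YBX1 is a cold shock domain protein that binds both DNA and RNA. It takes its name from the Y-box, an inverted CCAAT box in gene promoters. A pseudogene is a copy of a gene that no longer encodes the intact product. Processed pseudogenes arise when a messenger RNA is copied back into the genome, and they are short and without introns. Other pseudogenes arise by duplication of a gene and keep its introns, as is common in the large receptor families of tandem gene clusters. Because copies resemble their parents and one another, short reads can fit several of them.

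The only peak for which a base sequence was at hand was the list 1 peak in Vmn2r-ps106, a vomeronasal receptor pseudogene. Its last part overlaps the 300-base promoter window of the neighbouring long noncoding RNA gene Gm40988 in the RefSeq table of GRCm38.p6. It is shown because it is an example of the peaks of low pileup described below. The overlap is at chr13:66695095-66695157, plus strand, 5′ to 3′, and the summit lies outside it, at base 66695039.

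Vmn2r-ps106: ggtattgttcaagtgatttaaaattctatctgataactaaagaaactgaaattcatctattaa

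These 63 bases hold neither CCAAT nor its reverse complement ATTGG, so no letters are in capitals. Both strands are covered by searching for the pair, the 2 motifs can share letters, and a window with either or both was counted once. The same stretch held one in 8.68% of the 32851 RefSeq promoter windows. G and C made up 23.8% of the stretch, against a median of 49.2% over all windows.

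The first question was how many peaks lay in pseudogenes and how high they were. The share of peaks on the chromosomes was 1.92% in list 1 (135 of 7016, 95% Wilson interval 1.63 to 2.27), 2.64% in list 2 (69 of 2615, 2.09 to 3.33) and 2.42% in list 3 (68 of 2814, 1.91 to 3.05). The mean was 2.33% ± 0.366 (SD, n = 3). The intervals overlap one another. The pseudogene spans covered 31.5 Mb, and per Mb of them the lists held 4.29, 2.19 and 2.16 peaks. Over the genome size given to the caller, all peaks came to 2.64, 0.986 and 1.06 per Mb. The intervals cover counting error alone and treat peaks as independent, which copies of a sequence are not.

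Pileup is the number of tags, each extended to 160 bp, that cover the summit of a peak, and with 1 tag kept per position and strand it cannot pass 320. Inside pseudogenes, lists 1, 2 and 3 had median pileups of 206, 105 and 168, against 212, 194 and 185 for the other peaks. The members spanned nearly the whole range of each list, from 22 to 302, from 25 to 300 and from 36.5 to 289.3. The median was lower inside pseudogenes in all 3 lists, with a mean difference of -37.6 ± 44.9 (SD, n = 3). An exact two-sided sign-flip permutation test over the 3 lists gave p = 0.25, the smallest p that 3 lists allow, so this design cannot reach 0.05. The difference was not negative in all 3 lists among pseudogenes of at most 20 kb, or among peaks with a −log10 q of at least 5. The size rested on list 2. Without it the mean difference was -11.9, and without list 1 or list 3 it was -53.4 and -47.5.

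Fold is a ratio that the authors' caller gave, with the pileup over the local input level. Its median inside pseudogenes was 1.79, 1.91 and 1.74 in lists 1, 2 and 3, against 1.78, 1.75 and 1.80 for the other peaks. The difference was positive in lists 1 and 2 and negative in list 3, with a mean of 0.0419 ± 0.113 (SD, n = 3; exact sign-flip permutation p = 0.75), and it turned to -0.0198 without list 2. It was smaller than the spread between lists. The local input level, expressed as a multiple of the genome-wide level, had a median of 26.1, 14.6 and 20.7 inside pseudogenes and 28.2, 26.5 and 25.2 elsewhere, lower in 3 of 3 lists (exact sign-flip permutation p = 0.25). The local input level is computed from pileup and fold, so at like folds a lower pileup gives a lower local input. Its difference is therefore not a result separate from that in pileup.

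**Figure D1:**
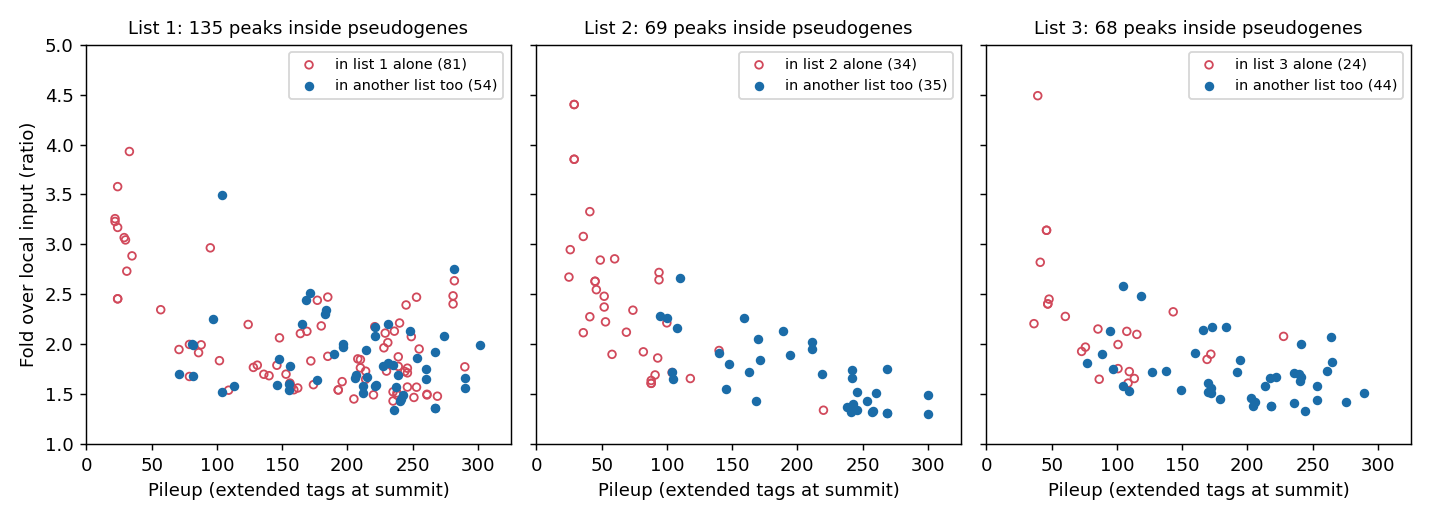
Pileup at the summit (x axis, extended tags) and fold over local input (y axis, ratio) of each peak inside a pseudogene, with 1 panel per list. Filled points overlap a peak of another list and open points do not. The 35 peaks with the lowest local input sit at the left, at pileups of 22 to 60 and folds of 2.12 to 4.49, and all of them are open.

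The next question was which pseudogene peaks were found again in another replicate. Of the 135 list 1 peaks inside pseudogenes, 54 overlapped a peak of another list by at least 1 bp, or 40%. The number was 35 of 69 for list 2, or 50.7%, and 44 of 68 for list 3, or 64.7%. Over all peaks on the chromosomes, the share was 42.3%, 80.8% and 81.7%. Against the peaks outside pseudogenes alone, the difference was -2.33, -30.9 and -17.5 percentage points, with a mean of -16.9 ± 14.3 (SD, n = 3; lower in 3 of 3 lists, exact sign-flip permutation p = 0.25, the smallest possible). In list 1 the members' share was close to the background, and the 2 smaller lists carried the difference. Leaving out list 2 changed the mean to -8.75 percentage points, and the difference was then negative in 1 of the 2 remaining lists.

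Peaks of low pileup made up more of the members than of the other peaks. Pileups under 100 were seen in 17.0%, 43.5% and 25.0% of the members of lists 1, 2 and 3 and in 6.13%, 14.1% and 12.5% of the other peaks. Of these low members, 5 of 23, 1 of 30 and 4 of 17 overlapped a peak of another list. Among other peaks under 100 the share was 41.9%, 32.4% and 45.5%. At pileups of at least 200, by contrast, 46.4%, 95% and 95.7% of the members were found again, against 38.6%, 94.6% and 91.4% of the other peaks. The limits of 100 and 200 were set after the values were seen, and differences within these classes were not tested.

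**Figure D2:**
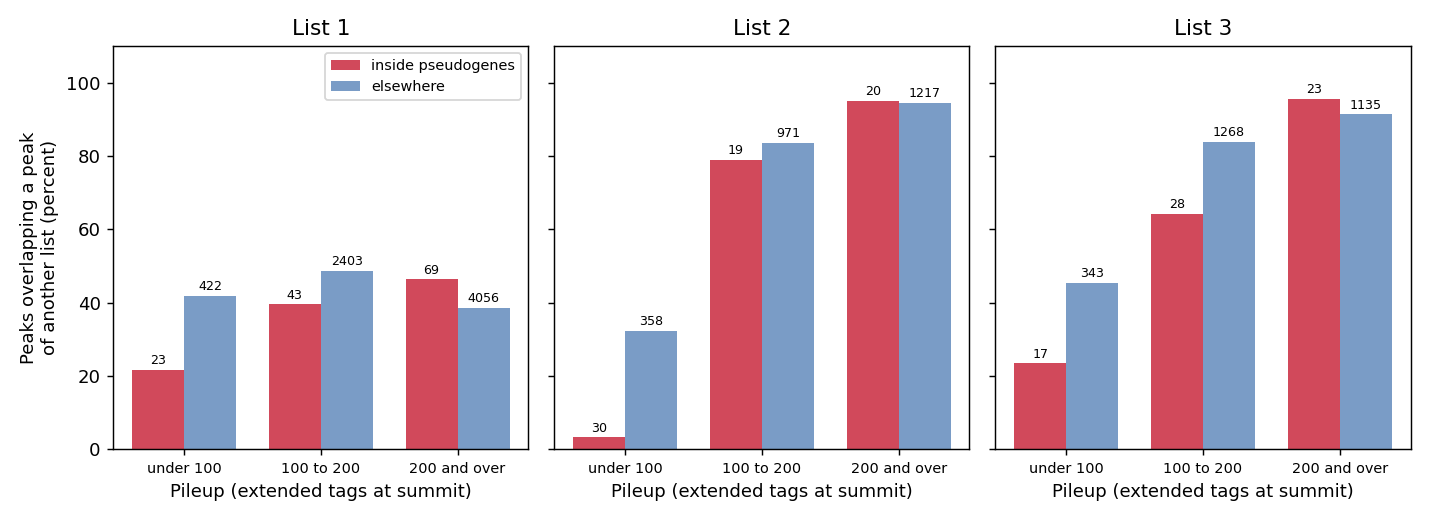
Share of peaks that overlap a peak of another list (y axis, percent) by class of pileup (x axis), for peaks inside pseudogenes and elsewhere, with 1 panel per list and the number of peaks over each bar. Under a pileup of 100, the bars for pseudogenes, at 21.7%, 3.33% and 23.5%, are below those for other peaks, and at 200 and over they are at 46.4%, 95% and 95.7%.

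In a subset of 35 members, the local input was less than 5 times that of the genome as a whole, a limit chosen with the values in view. List 1 held 11 of them, list 2 held 16 and list 3 held 8. These were 8.15%, 23.2% and 11.8% of the members, against 2.38%, 7.11% and 4.88% of the other peaks. None of the 35 overlapped a peak of another list, whereas 99 of the 479 other peaks with such a low input did, or 20.7%, a difference that was not tested. Some of the 35 had the same pileup and fold as another of them in the same list, so they need not be independent. Local input is computed from pileup and fold, so the limit itself selects low pileups and high folds. The median fold of the low-input members was 3.07, 2.85 and 2.64 in lists 1, 2 and 3, and that of the other low-input peaks 3.23, 3.08 and 3.27. The highest folds of all members were among them. In list 3, the peak in Gm8171 on chromosome 9 had a fold of 4.49 at a pileup of 39.4. In list 2, the peaks in Gm3616 and Gm3683 on chromosome 7 both had a fold of 4.40 at a pileup of 29. In list 1, the peak in LOC115486238 on chromosome 4 had 3.93 at 33, and that in Vmn2r-ps44 on chromosome 7 had 3.58 at 24. Each of these 5 peaks was seen in 1 list.

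Merging the members gave 195 regions in pseudogenes. Of these, 140 had peaks of 1 list, 33 of 2 lists and 22 of all 3, so 28.2% were in at least 2 lists. Peaks outside pseudogenes were not merged, so no like share over all regions stands beside this one. Among the 140, 1 region, in Gm52575, overlapped peaks of the other lists whose midpoints lie outside pseudogenes. Regions of 1 list numbered 82 for list 1, 34 for list 2 and 24 for list 3. Pairs of lists shared 11 regions (lists 1 and 2), 20 (lists 1 and 3) and 2 (lists 2 and 3). The 55 regions in at least 2 lists became 28 when peaks had to reach a −log10 q of 5, and 23 without list 1, 42 without list 2 and 33 without list 3.

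The 22 regions in all 3 lists lay in 21 pseudogenes. Their mean pileup ran from 86.3 to 288.6, with a median of 201.7, and their mean fold from 1.34 to 2.91, with a median of 1.71. The SD over the 3 lists was a median of 4.13% of the mean for pileup and 8.02% for fold. The fold was highest in list 1 for 17 regions, in list 2 for 4 and in list 3 for 1. Summits of the 3 lists lay within 50 bp of one another in 17 regions. At a −log10 q of at least 5, 11 regions stayed in all 3 lists, 5 were left in 2, 4 in 1 and 2 in none.

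Among these 22, the region with the highest fold in every list was in Gm17892 on chromosome 15, a pseudogene of 1452 bp at 60397290 to 60398741. The peaks spanned 60398213 to 60398628. Pileups were 104, 110 and 104.8 and folds 3.49, 2.66 and 2.58 in lists 1, 2 and 3, or 2.91 ± 0.505 (SD, n = 3). The local input there was 7.19, 9.88 and 9.90 times the genome-wide level, well under the median of the members in each list. The 3 lists gave nearly the same pileup, and their summits lay within 7 bp. The nearest protein-coding gene, 4933412E24Rik, was 380.7 kb away.

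Gm4954 on chromosome 1 held 2 regions of all 3 lists in a span of 8350 bp. The stronger, at 166765806 to 166766175, had folds of 2.31, 2.13 and 2.17 and pileups of 183, 189 and 173, with the summit on the same base, 166766064, in every list. The weaker, at 166763717 to 166764034, had folds of 1.60, 1.81 and 1.73. The closest protein-coding gene was Fmo9, of the flavin monooxygenase family, at 80.3 kb. On chromosome X, Gm4993 had folds of 2.52, 2.26 and 1.91, and it lies 46.9 kb from Pcdh11x, a protocadherin gene. Gm14614, also on chromosome X and 7.39 kb from the glutamate receptor gene Gria3, had folds of 2.34, 1.85 and 2.17. Apart from the weaker region of Gm4954, with pileups of 146, 148 and 137, these regions had pileups between 159 and 189 in all lists.

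Pileups above 200 in every list were found in Gm6317, Gm3623, Gm5903, Vmn2r-ps23, Gm6020, Gm13767, Gm13768, Gm15931, Gm51966 and Gm51976. The highest was in Vmn2r-ps23 on chromosome 5, with 290, 300 and 275.8, at folds of 1.66, 1.49 and 1.43. Gm6317 on chromosome 13 had 267, 269 and 261.4, at folds of 1.92, 1.75 and 1.74. Gm15931 on chromosome 7 had the lowest mean fold of the 22 regions, with 1.35, 1.34 and 1.33 at pileups of 236, 258 and 244. Local input is computed from pileup and fold, so a high pileup at a low fold means a high local input. In Gm15931 it was 43.3, 46.8 and 45.3 times the genome-wide level.

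Other regions of all 3 lists had lower or less even pileups. Gm11865 on chromosome 4, which lies 82.4 kb from the kinase gene Ripk2, had 197, 194 and 194.1 at folds of 2.00, 1.90 and 1.84. Vmn2r-ps25 on chromosome 5 had 177, 168 and 172 at folds of 1.65, 1.43 and 1.52. Gm3972 on chromosome 7 had 207, 163 and 202.8, and its summits were up to 380 bp apart. Its peaks of lists 2 and 3 do not overlap each other and are joined only by the wider peak of list 1. Gm3029 on chromosome 14 had the widest spread, with 71, 108 and 118.2, and was the region whose fold was highest in list 3, at 2.48 against 1.70 in list 1 and 2.16 in list 2.

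**Figure D3:**
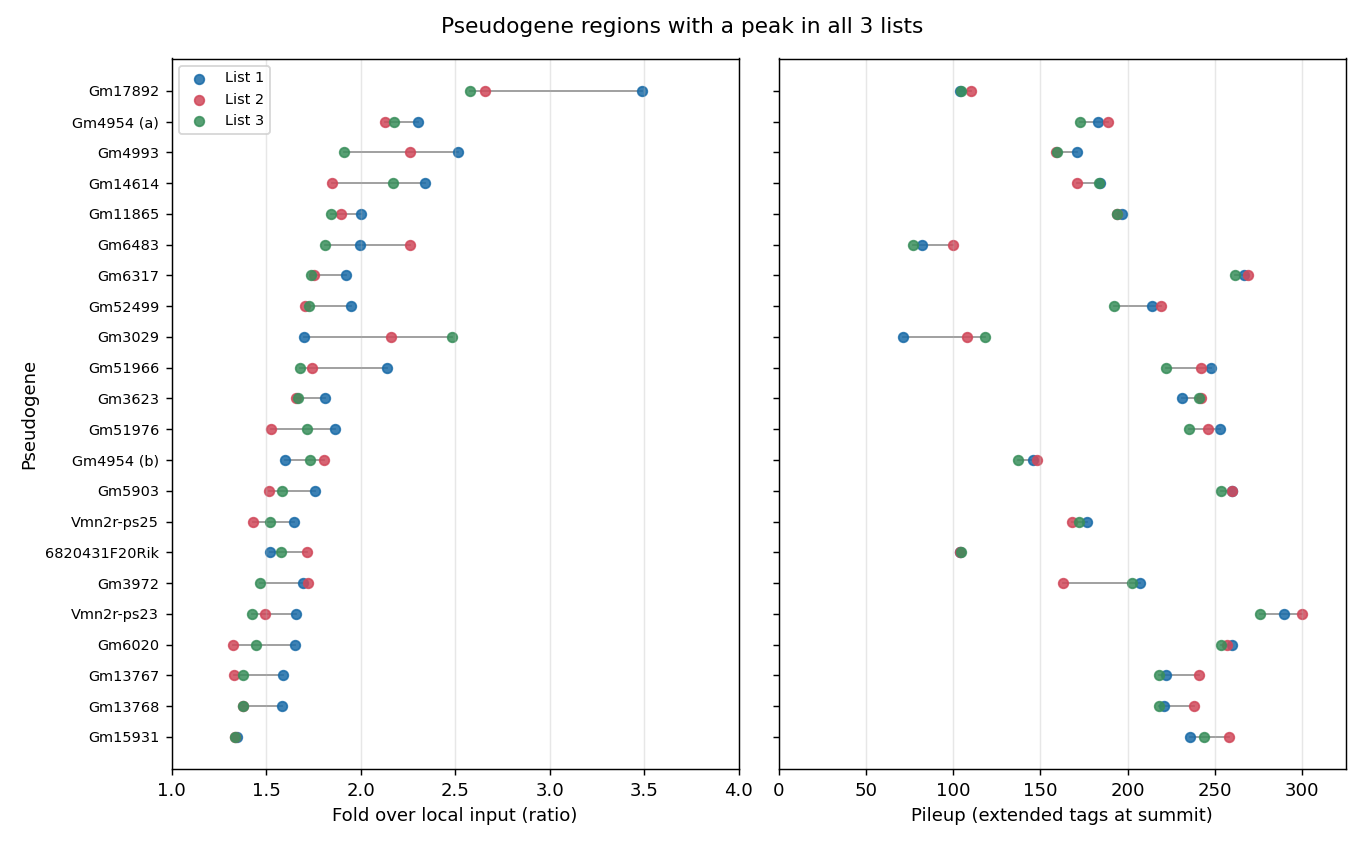
Fold over local input (left, ratio) and pileup at the summit (right, extended tags) in lists 1, 2 and 3 for the 22 regions with a peak in all 3 lists, ordered by their worst rank by fold within a list. Points are single lists and grey lines join the lowest and highest. Gm17892 has the highest fold in each list at pileups of 104 to 110, while Gm15931 has folds of 1.33 to 1.35 at pileups of 236 to 258.

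Which pseudogenes held peaks differed by their length. Pseudogenes with a peak had a median span of 18.1 kb, against 0.910 kb for those without. Of 10510 pseudogenes, 118 had a peak in any list, which is 1.12%, 48 had peaks of at least 2 lists, or 0.457%, and 27 of all 3, or 0.257%. Under 1 kb, 2 of 5831 had one, or 0.0343%. Between 1 and 4 kb the number was 9 of 3527, between 5 and 20 kb 38 of 666, or 5.71%, and over 20 kb 53 of 303, or 17.5%. A longer span offers more positions. Per Mb of span, lists 1, 2 and 3 held 0.293, 0.293 and 0 peaks in pseudogenes under 1 kb and 1.28, 0.320 and 0.160 between 1 and 4 kb. They held 5.38, 3.88 and 3.29 between 5 and 20 kb and 4.64, 2.35 and 2.28 over 20 kb, so the longest class was below the one before it in each list. The gene table gives spans without exons, so a peak in a long pseudogene may lie in what was an intron.

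The pseudogenes of 4300 to 4316 bp stood out from this order. The annotation holds 20 of them, and 14, or 70%, had a peak, against 104 of the remaining 10490, or 0.991%, and 2 of 163 pseudogenes between 4 and 5 kb outside these limits. The limits were chosen after the peaks in them had been seen, so the share is a description without a test. Of the 20, 17 have symbols between Gm51954 and Gm52774 and lie on chromosomes 2, 5 and 12, and the 14 with peaks were all among them. On chromosome 12, 7 of 10 had a peak, on chromosome 2 all 5 and on chromosome 5 both. Their symbols do not name a parent gene. The remaining 3, Gm10242, Zscan4e and Gm7991, had no peak in any list. Without list 1 the number with a peak was 9.

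The 14 held 39 peaks, of which list 1 had 24, list 2 had 5 and list 3 had 10, or 17.8%, 7.25% and 14.7% of their members. These made 25 regions, 3 of them in all 3 lists, and 26 of the 39 peaks, or 66.7%, overlapped a peak of another list. Over all peaks on the chromosomes the share was 42.3%, 80.8% and 81.7% in lists 1, 2 and 3. The pooled figure is weighted to list 1, so it cannot be set against the share of a single list. All 5 peaks of list 2 overlapped a peak of another list, and in list 3 all but that of Gm51996 did. In list 1 some did and others did not. Differences from all peaks were not tested. Pileups of the 39 peaks ran from 109.6 to 282 with a median of 219, and folds from 1.38 to 2.64 with a median of 1.71. Gm51966 had pileups of 248, 242 and 222 at folds of 2.14, 1.74 and 1.68, and it lies 3.27 kb from Prpf39, which encodes a splicing factor. Gm51976 had 253, 246 and 235.4 at folds of 1.86, 1.53 and 1.71, and a second peak of list 1 with the class's highest fold, 2.64, at a pileup of 282. Gm52499, with 6 peaks in 3 regions, had 214, 219 and 192.2 at folds of 1.95, 1.71 and 1.72 in the region of all 3 lists. The 3 regions had pileups of 192.2 or more in every list.

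Some summits lay at like positions in several of these pseudogenes. The examples were picked from the 39 after their positions were seen, and the sequences were not compared. Measured from the end with the lower coordinate, summits lay at 2773 bp in Gm51996 (lists 1 and 2), 2781 bp in Gm51978 (list 1) and 2772 bp in Gm52774 (lists 1 and 2). In Gm51966 the summits were at 2576, 2575 and 2576 bp, and in Gm51978 a further one was 2573 bp from the opposite end. Gm51996 and Gm52774 had the same pileups, 221 in list 1 and 211 in list 2. Equal values were also seen outside this class. In list 1, Gm51996 and LOC115489104 on chromosome X both had a pileup of 221 and a fold of 2.18. Gm51994 and Gm51975, which spans 3772 bp, both had 193 and 1.54. Whether such peaks share a sequence was not tested, so the 14 pseudogenes need not be independent. Over the 39 peaks, summits were 78 to 1728 bp from the nearer end, with a median of 1223 bp. The table gives no strand, so it could not be said whether 2 of them run the same way.

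**Figure D4:**
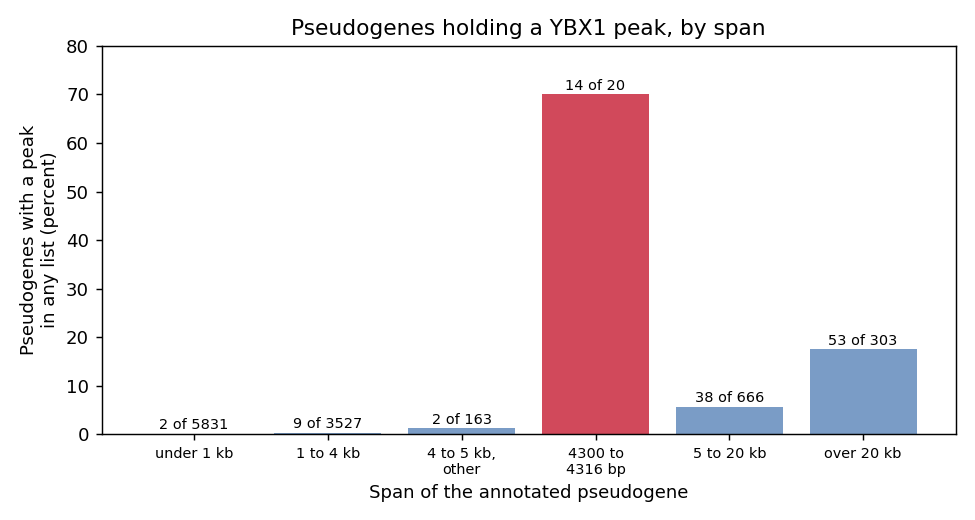
Share of annotated pseudogenes with a peak in any list (y axis, percent) by span (x axis), with counts over the bars. The bar for 4300 to 4316 bp, 14 of 20, is above those of all longer and shorter classes, which range from 0.0343% to 17.5%.

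**Figure D5:**
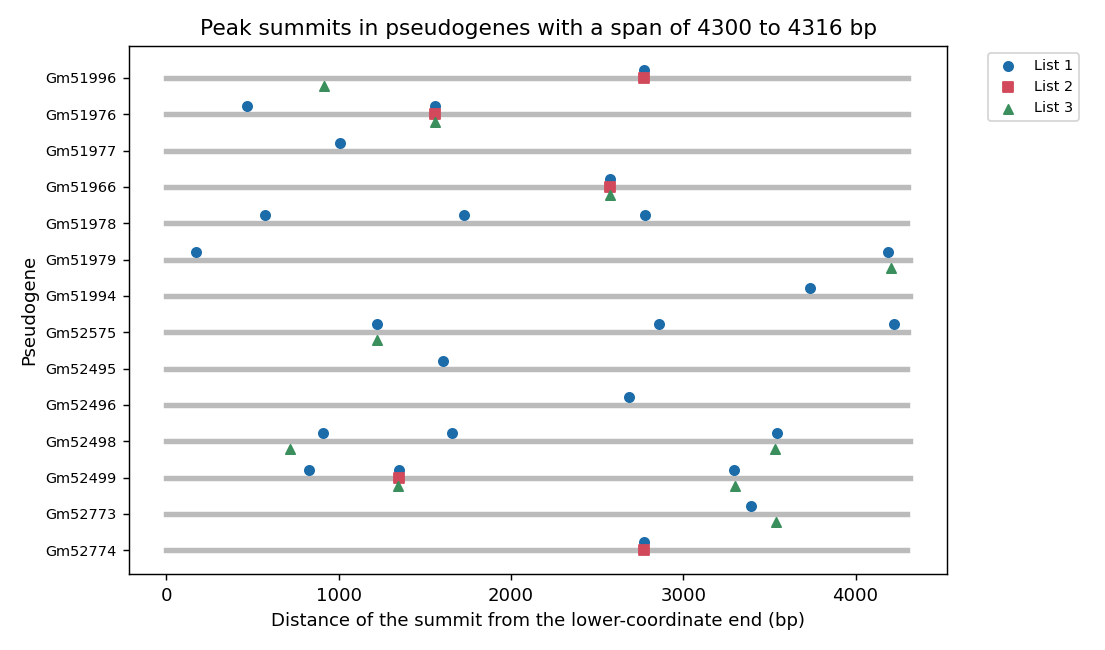
Positions of peak summits (x axis, bp from the end with the lower coordinate) in the 14 pseudogenes of 4300 to 4316 bp that held peaks, 1 grey bar each, with circles for list 1, squares for list 2 and triangles for list 3. Summits of different lists coincide in Gm51976, Gm51966 and Gm52499, and summits near 2773 bp recur in Gm51996, Gm51978 and Gm52774.

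Parent families could be read from the symbol or a synonym for 27 of the 118 pseudogenes with a peak. The other 91, such as Gm numbers and Rik clones, were assigned no parent, as were 8405 of the 10510 annotated pseudogenes. Gm13377, with 5 peaks, is counted among the 91, although the table gives it the synonym Prtfdc1. Among those with a named parent, vomeronasal receptor 2 pseudogenes were the most numerous. These receptors sense pheromones in the vomeronasal organ, and their genes form tandem clusters rich in pseudogenes. Of 149 annotated, 13 had a peak, or 8.72%, with 11, 9 and 10 peaks in lists 1, 2 and 3. All 13 were among the 49 that span over 10 kb, of which they made up 26.5%. Among all 592 pseudogenes over 10 kb the share was 13.7%. The 100 shorter ones had none.

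The vomeronasal pseudogenes fell into a high and a low group of pileups. Vmn2r-ps23, Vmn2r-ps25 and Vmn2r-ps26 on chromosome 5 and Vmn2r-ps11 on chromosome 3 had pileups of 109 or more. In Vmn2r-ps26, lists 1 and 2 gave 239 and 243 at folds of 1.69 and 1.40. The peaks of the remaining 9 lay on chromosomes 4, 7 and 13 and had pileups of 24 to 69. On chromosome 4, Vmn2r-ps15, Vmn2r-ps16 and Vmn2r-ps17 overlap zinc finger genes such as Zfp980, Zfp992 and Zfp987. Together with LOC115486238 they held 12 peaks within 1.01 Mb, of which 0 overlapped a peak of another list. Among peaks outside pseudogenes with pileups under 100, 41.9%, 32.4% and 45.5% did in lists 1, 2 and 3. The 12 need not be independent. In list 3, Vmn2r-ps16 and Vmn2r-ps17 both had a peak of 240 bp with a pileup of 47.1 and a fold of 2.40. Vmn2r-ps15 and Vmn2r-ps16 both had one with 46.1 and 3.14. Vmn2r-ps17 had 6 peaks, 1 in list 1, 3 in list 2 and 2 in list 3, each at its own position. Of the 35 low-input members, 15 lay in vomeronasal receptor 2 pseudogenes. Gm3616, whose peak had the highest fold of list 2, lies 149.9 kb from the receptor gene Vmn2r37.

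Major urinary protein pseudogenes, copies of genes for pheromone carriers made by the liver, had peaks in 3 of 20 cases, or 15%. Each of the 3 spans over 10 kb, a length at which 13.7% of all pseudogenes had a peak. The 15% is over major urinary protein pseudogenes of every length, with a median span of 3488 bp, so these shares are not alike. The share among those of the family over 10 kb was not computed. Mup-ps19 had pileups of 231 and 241.2 and folds of 2.21 and 2.00 in lists 1 and 3, which overlapped. Mup-ps1 and Mup-ps10 each had 1 peak, in list 2, with pileups of 26 and 36. The SPEER family, genes expressed in the testis, had peaks in 2 of 5 pseudogenes, with a median span of 33.9 kb for the 5, and 17.5% of all pseudogenes over 20 kb had one. Speer8-ps1 had folds of 1.91 and 1.73 in lists 2 and 3, at pileups of 140 and 126.9. The zinc finger pseudogene Gm6020, recognised by its synonym mszf72, had pileups of 260, 257 and 253.7 and folds of 1.65, 1.32 and 1.45. Single peaks in 1 list were found in Ifi203-ps, Nlrp1c-ps, Cyp4a30-ps, Mug-ps1, Ccl19-ps2, Obox4-ps11 and Rnls, the last of which the table lists as a transcribed pseudogene. The Ccl19-ps2 peak also lies in Gm52989.

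Families of mostly short pseudogenes had few peaks or none, as had short pseudogenes in general. Of 331 ribosomal protein pseudogenes, with a median span of 533 bp, 1 had a peak, or 0.302%, against 0.0343% of all pseudogenes under 1 kb. This was Rpl10-ps5 on chromosome 8, in list 1 alone, with a pileup of 31 and a fold of 2.73, and it lies within the nuclear pore gene Nup93. The pseudogenes of 15 other families, 855 in all, had 0 peaks in any list. They are pooled here because they had none. They included 318 olfactory receptor, 144 vomeronasal receptor 1 and 179 immunoglobulin, T cell receptor or MHC pseudogenes. They also included 61 of cyclophilin, 48 of heat shock proteins or chaperonins and 3 of RNA-binding or splicing proteins. The median span of each of these 15 families was at most 2498 bp, and pseudogenes under 4 kb seldom had a peak whatever their name.

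By annotation class, 15 of 476 transcribed pseudogenes had a peak, or 3.15%, and 103 of 9854 in the plain pseudogene class, or 1.05%. Transcribed ones were also longer, with a median of 3298 bp against 907.5 bp. All 153 V segment pseudogenes of the antigen receptor loci were without a peak. Their median span was 376 bp, and of all pseudogenes under 1 kb only 0.0343% had one. Of the 272 peaks, 21, or 7.72%, were also inside a protein-coding gene, against 24.4% of the peaks outside pseudogenes.

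The largest cluster of pseudogenes with peaks was on chromosome 8, between 19682266 and 20835070. There 7 of 14 annotated pseudogenes held 30 peaks, 8 in list 1, 12 in list 2 and 10 in list 3. They were Gm6483, Gm20778, 6820431F20Rik, 2610005L07Rik, Gm21811, Gm21092 and Gm20946. The same 1.15 Mb held 127 peaks of all kinds. The members there had pileups from 75.9 to 128, a range between those of the low-input peaks and those of most other members, with a median of 94 and folds of 1.52 to 2.28. The local input was 9.40 to 17.8 times the genome-wide level, and 14 of the 30 overlapped a peak of another list. Over all peaks on the chromosomes the share was 42.3%, 80.8% and 81.7% in lists 1, 2 and 3. The 14 of 30 pools the lists, so it cannot be set against the share of a single list. The share of the other peaks in this stretch was not computed.

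Gm20778 had the most peaks of any pseudogene, 12, spread over 10 regions of which none was in all 3 lists. In 6820431F20Rik, with 8 peaks, the region at 20269452 to 20269837 had pileups of 104, 104 and 104.8 and folds of 1.52, 1.72 and 1.58. In Gm6483, 6.62 kb from 4930467E23Rik, the region at 19683196 to 19683514 had pileups of 82, 100 and 76.9 and folds of 2.00, 2.26 and 1.81. Elsewhere, Gm5903 on chromosome 7 had 10 peaks in a span of 10.9 kb, with 260, 260 and 253.7 at its region of all 3 lists. Gm18728 on chromosome 1, the longest annotated pseudogene at 429.5 kb, had 7, of which the highest, in list 1, had a pileup of 274 and a fold of 2.09.

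Some peaks matched another peak within their list exactly in length, pileup, fold and the place of the summit, and are called copies here, though whether their sequences are alike was not tested. Members with a copy numbered 18, 9 and 11 for lists 1, 2 and 3, or 13.3%, 13.04% and 16.2%, against 22.2%, 23.6% and 18.5% of other peaks. In list 1, Gm12619 on chromosome 11 and Gm18809 on chromosome 17 both had a peak with a pileup of 267 and a fold of 1.37, and 37 peaks on 18 chromosomes, these included, had the same values. In list 2 the peaks of the same 2 pseudogenes, with a pileup of 269 and a fold of 1.31, belonged to a set of 70 peaks with these values on 20 chromosomes. A copy on another chromosome was found for 15 of the 18 members of list 1, 4 of the 9 of list 2 and 7 of the 11 of list 3. Some copies were local. Gm3616 and Gm3683 on chromosome 7 were matched by each other alone, as were Vmn2r-ps40 and Gm3584, which shared a pileup of 29 and a fold of 3.85 in list 2. Gm13767 and Gm13768 on chromosome 2 both span 17941 bp. They had pileups of 222 and 221 in list 1, 241 and 238 in list 2 and 218.1 each in list 3, and their folds in list 3 were both 1.38. The list 3 peaks were 205 and 204 bp long, so they were not copies of each other as defined here. The highest pileups of all members, in Gm3883 on chromosome 4 (302 in list 1, and 289.3 in list 3, where the copies lie on scaffolds outside the chromosomes), Gm6831 on chromosome 8 (290 in list 1, 300 in list 2) and Gm46496 on chromosome 15 (290 in list 1), belonged to peaks with such copies. Those of Vmn2r-ps23, with 290 in list 1 and 300 in list 2, did not.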

How the data were processed

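Per the submitters' processing notes, the tools were Trim Galore for trimming and MACS2 for peaks, and the build was GRCm38. The aligner, and what was done with reads of several possible places, were not given in the sources used here. Per the file headers, MACS 2.1.1.20160309 was run once per immunoprecipitate, each with an input library of its own, with no shifting model, an extension of 160 bp, a q threshold of 0.01 and 1 tag per position and strand. The larger library was scaled to the smaller (input by 0.765 and 0.970 in lists 1 and 2, immunoprecipitate by 0.961 in list 3). The deposited pileup is a signal in extended tags after scaling. The deposited fold is a ratio of pileup to local input, read here with 1 added to both, and −log10 p and −log10 q are the caller's deposited values.

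The members and lists were chosen with earlier results of these data known. List numbers are those in the lists' names, since the headers number the libraries in another way. Gene spans were those of RefSeq for GRCm38.p6, without 99 pseudogene entries placed in the first 3 Mb of a chromosome (Y excepted). Local input was (pileup + 1)/fold − 1, over the genome-wide level of the scaled libraries. Membership, merging and overlap were tested on simulated data. Differences between members and other peaks were taken within each list and tested over the 3 lists by an exact two-sided sign-flip permutation test, in Python with pandas 2.3.3. Families were read from symbols or synonyms. Named are all pseudogenes with a region in all 3 lists, the 3 highest folds and pileups of each list, the 5 pseudogenes with most peaks, and the strongest shared region of each family. Further ones were chosen after their values were seen. Base sequence of the peaks, beyond 1 promoter window, was not used here, so the planned motif count and sequence matches to parents were not run. Alternatives were the summit for the midpoint, a stricter threshold, an overlap of 50% of the shorter peak, and leaving out copies, pseudogenes that overlap protein-coding genes, or 1 list. Those added after seeing the data left out pseudogenes over 20 kb or those of 4300 to 4316 bp.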

Additional observations from a re-analysis of the deposited data

How the results depend on the processing

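Of 70 values recomputed under alternatives, 62 were classed as the same, 7 as moved and 1 as reversed. For differences, the same meant only that the direction was kept. For counts, values classed as the same were not always close to the reported one. The number of pseudogenes with a peak, 118, fell to 79, 96 and 109 without lists 1, 2 and 3. With the stricter q threshold it was 91, and all 4 values were classed as the same. As the test over 3 lists cannot pass 0.05, these classes say little of the stability of the 4 differences. The number of pseudogene regions in at least 2 lists, 55, was 28 at a −log10 q of at least 5 and 31 in pseudogenes of at most 20 kb, and 23 to 42 with 1 list left out. The share of peaks inside pseudogenes, 2.33%, was 1.92% in pseudogenes clear of protein-coding genes and 1.19% in those of at most 20 kb. The difference in recurrence, -16.9 percentage points, was -9.37 in pseudogenes of at most 20 kb and -12.7 in those clear of protein-coding genes, and there it was not negative in all 3 lists. Nor were the differences in pileup (-26.8) and local input (-3.87) in pseudogenes of at most 20 kb, or, with peaks held to a −log10 q of 5 or more, that in pileup (-32.5). The difference in median fold ran from -0.0198 to 0.0904 with 1 list left out. The number of pseudogenes of 4300 to 4316 bp with a peak ran from 9 to 14 over the lists left out. Beyond the differences taken within each list, no paired analysis was possible because a list holds only the caller's comparison of an immunoprecipitate with its input. Lists hold only peaks past the threshold, so a peak missing from a list may be a weaker one, and tags were capped at 1 per position and strand.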
